A study of Mus musculus with 4 samples.

Results

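The 9 genes described here are expressed by neuroblasts, the migrating young neurons of the forebrain, and were followed by RNA sequencing in normotensive (NT) and angiotensin II-treated (HT) mice after stroke or sham surgery. They are Dcx, Sox11, Dlx1, Dlx2, Dlx5, Igfbpl1, Cd24a, Sp8 and Sp9, taken by gene symbol, and each matched 1 of the 33981 genes in the joined tables. Poly(A) RNA was taken from coronal tissue that held the prefrontal cortex, in 24 libraries with 6 in each of 4 groups. All mice were male C57BL/6J of 3 to 5 months. Infusion lasted 28 days, with saline in NT + Sham and NT + Stroke mice and with 0.28 mg/kg of angiotensin II a day in HT + Sham and HT + Stroke mice. On day 7 the stroke groups had photothrombosis of the prefrontal cortex, in which cold light on the skull activates circulating Rose Bengal and clots the vessels below, and the sham groups had no illumination. Brains were taken on day 28, 21 days after surgery. The sample entries describe 4 groups rather than single mice, so each numbered library was treated as a separate mouse, and P-values measure the spread between these libraries, which may be technical. Which coronal plane was cut for each library is not given in the sources used here, and whether these genes follow it or follow the stroke is the question examined.

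In the adult mouse forebrain, neural stem cells in the subventricular zone along the lateral ventricle give rise to dividing intermediate cells and then to neuroblasts. Neuroblasts travel in chains along the rostral migratory stream into the olfactory bulb, where they become granule and periglomerular interneurons. After a cortical stroke, neuroblasts can also turn towards the injured tissue. The genes examined are therefore expressed in the subventricular zone, the stream and the olfactory bulb, and how much of each lies in a coronal section depends on its position along the brain. In bulk RNA from a section, fewer cells of a type and less RNA per cell cannot be told apart.

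Dlx1, Dlx2 and Dlx5 encode homeodomain transcription factors of GABAergic forebrain neurons, and Sp8 and Sp9 encode zinc finger transcription factors of olfactory bulb interneurons. Sox11 encodes a high mobility group box transcription factor of immature neurons. Dcx (doublecortin) encodes a microtubule-associated protein of migrating neurons, Cd24a encodes a cell surface glycoprotein carried by neuroblasts and by ependymal cells, and Igfbpl1 encodes a secreted protein of the insulin-like growth factor binding family. Dlx1 (GRCm38 chr2:71528113-71533981, plus strand) and Dlx2 (chr2:71543408-71546754, minus strand) lie tail to tail with 9426 bases between them, and Sp9 (chr2:73271925-73284706, plus strand) is on the same chromosome. Sox11 (chr12:27334264-27342574, minus strand) and Sp8 (chr12:118846329-118852576, plus strand) are both on chromosome 12. Dcx is at chrX:143855842-143933311 on the minus strand, Dlx5 at chr6:6877805-6882085 on the minus strand, Igfbpl1 at chr4:45809468-45826923 on the minus strand and Cd24a at chr10:43578284-43584265 on the plus strand. Positions are those of the whole gene in the tables, and all 9 are the same in GENCODE M21. Dlx1 is overlapped over 5869 bases by the antisense gene Dlx1as (mean 1.7 CPM, counts scaled to library size) and Sp9 over 1602 bases by Cir1 (12.5 CPM) on the opposite strand. Whether counting used the strand is not given in the sources used here, and without strand such reads cannot be told apart.

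The 250 bases before the transcription start were available from RefSeq (GRCm38.p6) for 6 of the 9 genes, in 9 windows. They are shown for Dlx2 and Sp9, which moved together across libraries, and for Dcx, which moved with them but did not pass the stroke test. Capitals mark matches, on either strand, to 3 motifs that do not overlap in these windows. The GC box, which Sp family factors are known to bind, was searched as the letters GGGCGG. The CCAAT box was searched by the letters of its name. The homeodomain core, which Dlx factors are known to bind, was searched as the letters TAATTA. The Dcx window precedes an annotated start that lies inside the gene.
Dlx2 (chr2:71546755-71547004, minus strand): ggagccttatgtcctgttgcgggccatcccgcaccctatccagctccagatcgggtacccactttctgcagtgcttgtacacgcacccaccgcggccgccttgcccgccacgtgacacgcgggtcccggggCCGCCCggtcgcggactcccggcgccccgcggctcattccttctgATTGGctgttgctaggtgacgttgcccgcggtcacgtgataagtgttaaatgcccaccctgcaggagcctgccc
Sp9 (chr2:73271676-73271925, plus strand): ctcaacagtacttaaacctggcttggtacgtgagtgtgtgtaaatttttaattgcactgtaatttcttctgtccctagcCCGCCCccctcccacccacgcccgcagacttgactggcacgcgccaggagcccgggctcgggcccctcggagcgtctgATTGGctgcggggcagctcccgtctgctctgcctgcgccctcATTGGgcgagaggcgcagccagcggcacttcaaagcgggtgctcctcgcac
Dcx (chrX:143933220-143933469, minus strand): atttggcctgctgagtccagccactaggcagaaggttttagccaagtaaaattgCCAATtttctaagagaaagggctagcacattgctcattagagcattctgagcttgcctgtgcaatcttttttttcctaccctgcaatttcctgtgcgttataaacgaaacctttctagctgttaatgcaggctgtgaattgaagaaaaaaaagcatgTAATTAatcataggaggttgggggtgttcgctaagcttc

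In Dlx2 the GC box began 119 and the CCAAT box 74 bases before the start. In Sp9 the GC box began 171 and the CCAAT boxes 93 and 51 bases before it. The Dcx window held the homeodomain core 39 bases and a CCAAT box 196 bases before the start. Of 32851 mouse windows of this length, 32.7% held the GC box, 33.8% the CCAAT box and 4.84% the homeodomain core. Among the 9 windows of the neuroblast genes, 4 held the GC box (Dlx2, Sox11, Sp8 and Sp9), 6 the CCAAT box and 3 the homeodomain core (Dcx and Sp8). The Dcx windows overlap and share the same homeodomain core, which was thus counted more than once. A match describes the letters and is not a binding site.

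Total counts were 15922919 to 24865998 per library (median 18497215). Section and injury markers were read as list scores, the mean of log2(CPM + 1) over the genes of a list. A total of 3 libraries stood apart from their groups on reactive astrocyte genes. HT + Stroke 1 and HT + Stroke 6 had astrocyte scores of 3.41 and 3.55, where the other stroke libraries had 4.77 to 6.09 and the other sham libraries 3.04 to 3.22. HT + Sham 6 had a score of 4.4, with a microglia and macrophage score of 4.73 where the other sham libraries had 2.85 to 3.16. The comparisons that hold these 3 libraries are given with and without them for the 9 genes, while the fits with striatum or ependyma scores and the counts over other gene lists are given with all libraries. The cortical excitatory neuron score was 6.13 to 6.88 over all libraries, with all 8 of its genes counted in every library. All 9 olfactory bulb genes (Cdhr1, Tbx21, Eomes, Doc2g, Th, Calb2, Gng13, Nmb and Barhl2) and all 11 striatal genes were also counted in every library. A count by itself does not show which region the RNA came from.

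The 9 genes were present at low to moderate level in every library. Per length of transcript, as the authors' FPKM (fragments per kilobase of transcript, scaled to sequencing depth), Dlx1 was highest with 13.7 on average over the 24 libraries, followed by Dlx5 with 9.22, Dlx2 with 6.92, Sp9 with 4.68, Cd24a with 4.33, Sp8 with 3.54, Dcx with 2.5, Sox11 with 2.04 and Igfbpl1 with 1.89. Every gene overlapped the next in this order in its range over libraries. All genes were measured in the same libraries, so overlap of these ranges does not show that neighbours were alike. In NT + Sham 1, for example, Dlx2 had 4.54 and Sp9 2.34 FPKM. Differences between genes were not tested. Counts ranged from 45 for Igfbpl1 in HT + Sham 2 to 2683 for Dlx1 in NT + Stroke 4, so sampling of reads was coarsest for Igfbpl1. The spread between libraries differed among the genes. Sp8 varied most, from 4.37 to 39.5 CPM over all libraries with a coefficient of variation of 56.8%, and Sox11 varied least, from 12.7 to 20.4 CPM with 12.1%. The other 7 genes had coefficients of variation of 32.1% to 39.4%.

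**Figure D1:**
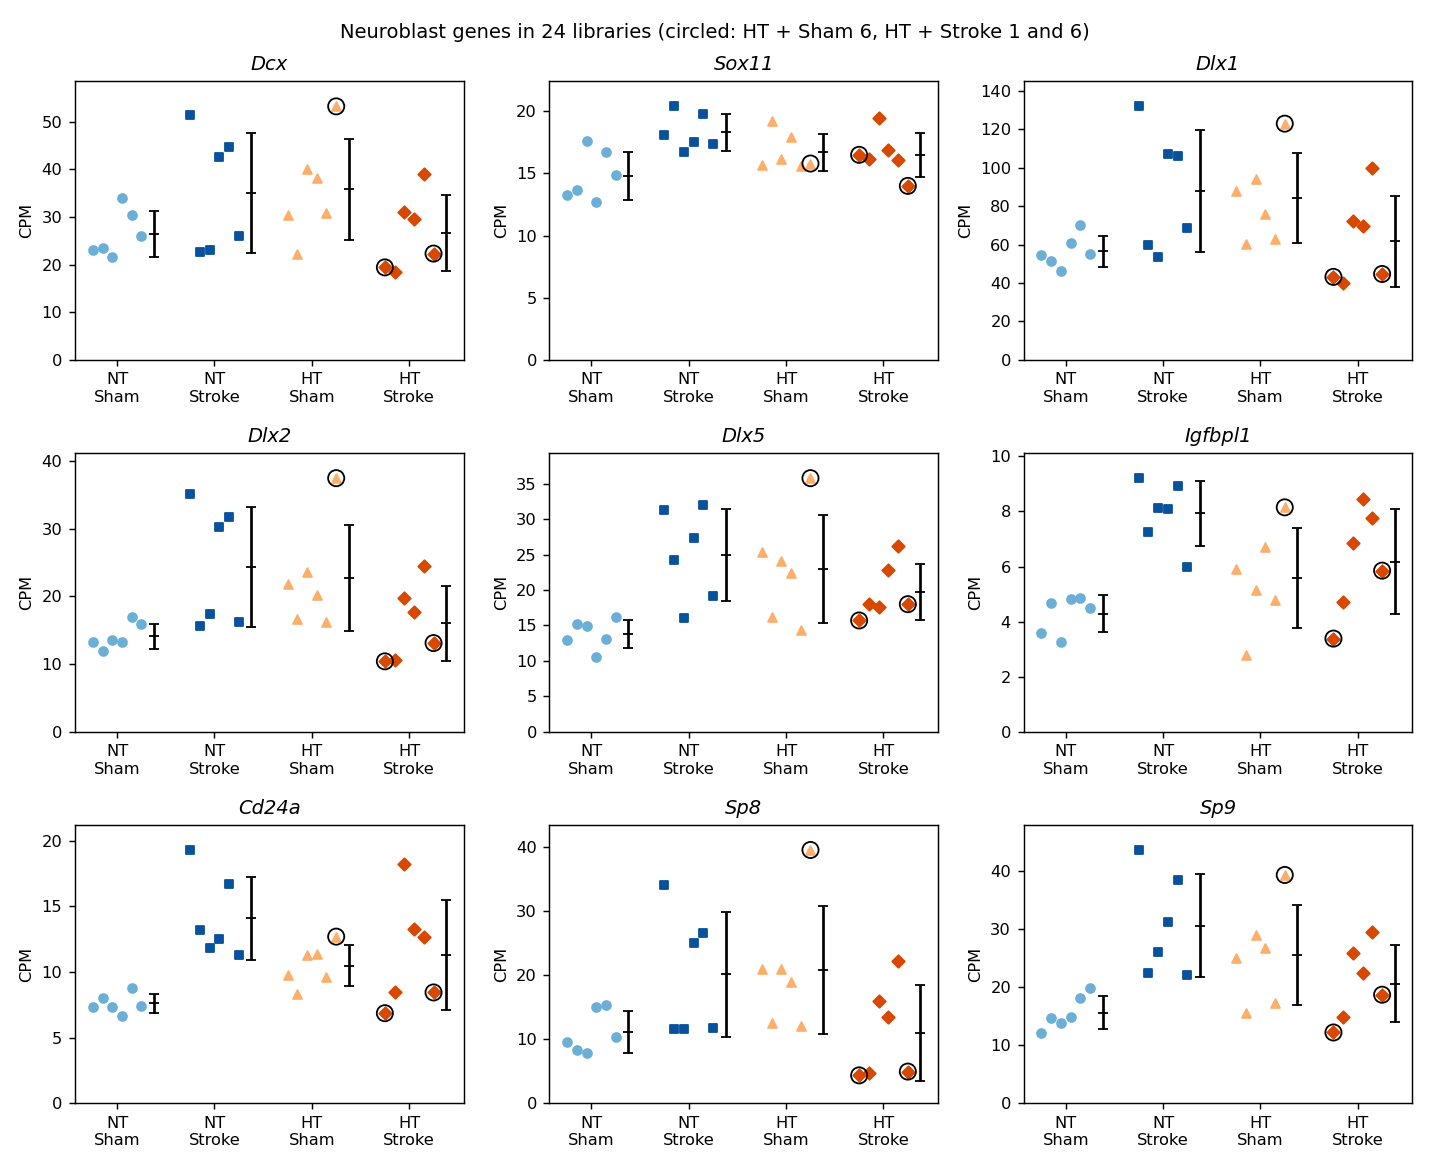
Level of each neuroblast gene in every library, as TMM-scaled CPM on the y axis (from 0), with the 4 groups on the x axis. Each point is 1 library, the bar beside each group is the mean ± SD (n = 6), and circles mark HT + Sham 6 and HT + Stroke 1 and 6. Cd24a and Igfbpl1 separate the NT + Sham from the NT + Stroke libraries, whereas Dcx and Sp8 do not.

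The comparison of NT + Stroke with NT + Sham asks whether stroke alone changed these genes 21 days later. Of the 9 genes, 6 rose (edgeR quasi-likelihood test, adjusted P under 0.05), where 14.4% of the 16835 genes tested were called higher. The 6 were Sp9, Cd24a, Igfbpl1, Dlx5, Dlx2 and Sox11. In 3 of the 9 (Sp9, Cd24a and Igfbpl1) every NT + Stroke library was above every NT + Sham library, against 7.47% of genes tested. The median log2 fold change of the 9 genes was 0.87, where that of all genes tested was -0.01.

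Among the transcription factors, Sp9 had the largest difference. It was 12.1 to 19.9 CPM (median 14.8) in NT + Sham and 22.1 to 43.6 CPM (median 28.6) in NT + Stroke. The groups did not overlap, and the log2 fold change was 0.99 ± 0.18 (SE, n = 6 per group, edgeR adjusted P = 0.001187). Dlx5 was 10.6 to 16.2 CPM (median 14) and 16 to 32 CPM (median 25.9). The groups overlapped only at NT + Stroke 3 (16 CPM) and NT + Sham 6 (16.2 CPM), and the log2 fold change was 0.88 ± 0.16 (edgeR adjusted P = 0.0007436). Dlx2 was 11.9 to 16.9 CPM (median 13.4) in NT + Sham and 15.6 to 35.1 CPM (median 23.9) in NT + Stroke. The log2 fold change was 0.81 ± 0.22 (edgeR adjusted P = 0.0161). NT + Stroke libraries 2, 3 and 6 lay at 15.6 to 17.4 CPM of Dlx2, close to the sham libraries, and the other 3 (1, 4 and 5) at 30.3 to 35.1 CPM.

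Sp8 and Dlx1 showed the same division of the stroke libraries and did not pass. Sp8 was 7.91 to 15.4 CPM (median 10) in NT + Sham and 11.6 to 34.1 CPM (median 18.4) in NT + Stroke, where libraries 2, 3 and 6 had 11.6, 11.6 and 11.8 CPM. Its log2 fold change was 0.87 ± 0.33 (edgeR adjusted P = 0.0812). Dlx1 was 46.4 to 70.1 CPM (median 55) and 53.7 to 132 CPM (median 87.5), with a log2 fold change of 0.66 ± 0.23 (edgeR adjusted P = 0.05332). Both were called by DESeq2 (adjusted P = 0.04403 for Sp8 and 0.02175 for Dlx1), which called 8 of the 9 genes. The count of called genes was 7 with upper-quartile scaling, with limma on FPKM and with a minimum of 10 counts per library, and 5 over all genes with at least 1 count. Sox11 rose least, from 12.7 to 17.6 CPM (median 14.3) to 16.7 to 20.4 CPM (median 17.8), with a log2 fold change of 0.33 ± 0.09 (edgeR adjusted P = 0.01049). Its NT + Stroke values did not divide as those of Sp8 did, since library 2, one of the lowest for Sp8, was the highest for Sox11.

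Among the genes for migration, the cell surface and secretion, Cd24a was 6.67 to 8.82 CPM (median 7.41) in NT + Sham and 11.3 to 19.3 CPM (median 12.8) in NT + Stroke. The groups did not overlap, with a log2 fold change of 0.91 ± 0.13 (edgeR adjusted P = 3.793e-05). Igfbpl1 was 3.27 to 4.85 CPM (median 4.59) and 6 to 9.21 CPM (median 8.11), again without overlap, with a log2 fold change of 0.90 ± 0.14 (edgeR adjusted P = 8.718e-05). Dcx, the gene most used to mark neuroblasts, did not pass. It was 21.5 to 34 CPM (median 24.7) in NT + Sham and 22.6 to 51.3 CPM (median 34.2) in NT + Stroke. Its log2 fold change was 0.42 ± 0.23 (edgeR adjusted P = 0.219), and libraries 2, 3 and 6 of NT + Stroke lay between 22.6 and 26 CPM, inside the sham range.

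In angiotensin II-treated mice the same comparison asks what stroke did on top of the infusion. None of the 9 genes passed for HT + Stroke vs HT + Sham, where 0.544% of 16741 genes tested were called higher. At an unadjusted P under 0.05 there were 0 of the 9, against 17% of all genes in either direction (DESeq2 called 0 of the 9 and gave 2 under an unadjusted 0.05). Of the 9, 6 had a negative and 3 a positive log2 fold change. Sp8 was 12 to 39.5 CPM (median 20) in HT + Sham and 4.37 to 22.2 CPM (median 9.24) in HT + Stroke, a log2 fold change of -0.90 ± 0.47 (edgeR adjusted P = 0.3654). Its 3 lowest libraries, HT + Stroke 1, 2 and 6, had 4.37, 4.78 and 4.96 CPM, below every library of the other groups. Dcx was 22.2 to 53.2 CPM (median 34.5) in HT + Sham and 18.4 to 38.9 CPM (median 26) in HT + Stroke (log2 fold change -0.41 ± 0.23, edgeR adjusted P = 0.3953). Igfbpl1, at 2.8 to 8.15 CPM (median 5.53) and 3.38 to 8.45 CPM (median 6.36), had a log2 fold change of 0.17 ± 0.25 (edgeR adjusted P = 0.7891), and Cd24a, at 8.33 to 12.7 CPM (median 10.5) and 6.87 to 18.2 CPM (median 10.6), one of 0.13 ± 0.20 (edgeR adjusted P = 0.8). Without HT + Stroke 1 and 6 and HT + Sham 6, 0 of the 9 genes passed, where 6.81% of genes were called higher, and the log2 fold changes were -0.25 to 0.49, with Dlx5 and Sp9 turning from negative to 0.08 and 0.05.

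**Figure D2:**
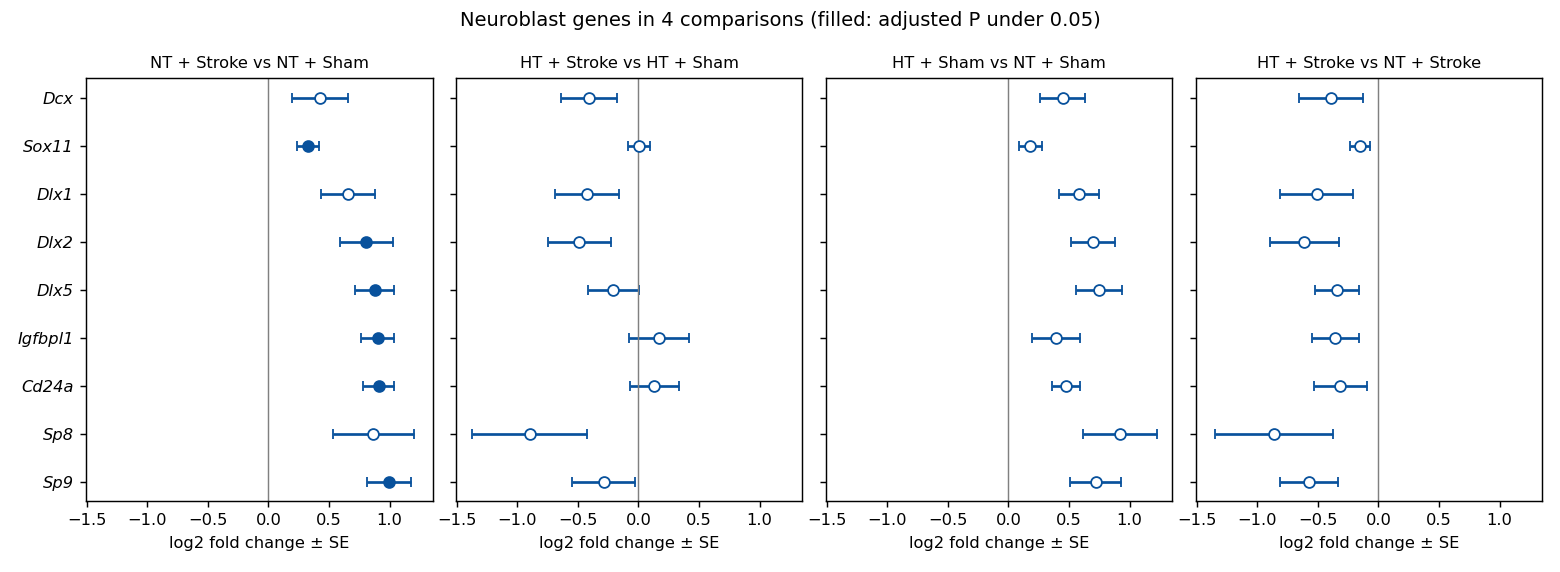
Log2 fold change ± SE (x axis) of the 9 genes (y axis) in 4 comparisons of 6 against 6 libraries, from edgeR. Filled points passed an adjusted P of 0.05, as 6 genes did in NT + Stroke vs NT + Sham and 0 in the other comparisons shown.

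The comparisons of HT with NT mice ask what the infusion did at a like surgery. They share their groups with the stroke comparisons, so the same libraries enter both. The log2 fold changes of the 9 genes were positive between sham groups and negative between stroke groups, and 0 genes of any kind passed in either comparison. For HT + Sham vs NT + Sham, 0% of 16581 genes were called by edgeR, while 4.96% had a positive log2 fold change and an unadjusted P under 0.05. All 9 neuroblast genes had a positive log2 fold change, from 0.18 for Sox11 to 0.92 for Sp8, and 7 of them had an unadjusted P under 0.05 (edgeR adjusted P 0.4064 to 0.6702). Dlx2, for example, was 11.9 to 16.9 CPM (median 13.4) in NT + Sham and 16.2 to 37.5 CPM (median 21.1) in HT + Sham, and all but 1 of the 9 genes were highest within HT + Sham in library 6. Without that library the 9 log2 fold changes were 0.19 to 0.62, and 6 had an unadjusted P under 0.05, as 2.83% of genes did in the positive direction. For HT + Stroke vs NT + Stroke, likewise 0% of 17008 genes were called and 3.89% had a negative log2 fold change and an unadjusted P under 0.05. All 9 genes had a negative log2 fold change, from -0.86 for Sp8 to -0.15 for Sox11, and 1 of them, Sp9, had an unadjusted P under 0.05 (edgeR adjusted P 0.6536 to 0.6826). Without HT + Stroke 1 and 6 the log2 fold changes were -0.50 to -0.09, with 0 under an unadjusted 0.05, as 4.57% of genes were in either direction.

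The interaction asks whether the stroke difference itself differed between NT and HT mice. All 9 genes had a negative interaction, that is a lower stroke log2 fold change in HT than in NT mice, with an unadjusted P under 0.05, where 5.88% of 17608 genes tested did so. None passed after adjustment, as for 0% of all genes (edgeR). The log2 interaction was largest for Sp8 (-1.77 ± 0.59, edgeR adjusted P = 0.3217), Dlx2 (-1.30 ± 0.36, adjusted P = 0.3195) and Sp9 (-1.28 ± 0.34, adjusted P = 0.3175), and smallest for Sox11 (-0.33 ± 0.12, adjusted P = 0.3689). DESeq2 called 2 of the 9 (Dlx5 and Sp9) where it called 0.131% of genes. Without the 3 libraries that stood apart, the 9 interactions were -1.11 to -0.27 and 6 had an unadjusted P under 0.05, where 2.31% of genes had a negative interaction at that P.

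Over both pressures together, Igfbpl1 (log2 fold change 0.53 ± 0.16, edgeR adjusted P = 0.01738) and Cd24a (0.51 ± 0.15, adjusted P = 0.01202) were higher in stroke libraries. That is 2 of the 9 genes, where 13.8% of 17608 genes were called higher, so the count is near the share of all genes. Dcx (0.00 ± 0.19) and Sp8 (-0.02 ± 0.36) were near 0 in this fit. Without the 3 libraries that stood apart, 5 of the 9 genes rose (Sox11, Dlx5, Igfbpl1, Cd24a and Sp9), where 16.8% of genes were called higher. Between HT + Stroke and NT + Sham, which differ in both treatments, Dlx5 alone rose (0.54 ± 0.13, edgeR adjusted P = 0.01757), where 8.38% of genes were called higher, so 1 of 9 is near the share of all genes. With all 4 groups in the edgeR fit Dlx5 did not pass (0.53, adjusted P = 0.0652) and Cd24a alone was called (0.60, adjusted P = 0.0216). Without HT + Stroke 1 and 6, 4 genes rose in that comparison (Dlx5, Igfbpl1, Cd24a and Sp9), where 12.2% of genes were called higher.

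The position of the section was then examined through markers of what lies along the brain. The olfactory bulb score (projection neurons and periglomerular cells) was 3.43 to 4.31 in NT + Sham, 3.83 to 5.56 in NT + Stroke, 3.96 to 5.73 in HT + Sham and 2.76 to 5.15 in HT + Stroke. The striatum score (11 genes of medium spiny neurons such as Drd1, Drd2 and Adora2a) was 4.65 to 6.78, 4.9 to 7.26, 4.17 to 6.34 and 5.88 to 7.52 in the same order. Both scores thus varied between libraries of the same treatment. The median olfactory bulb score was 3.94 in NT + Sham, 4.77 in NT + Stroke, 4.96 in HT + Sham and 3.82 in HT + Stroke. The median score of the 9 neuroblast genes was 3.92, 4.53, 4.48 and 4.14, so both medians were higher in NT + Stroke and HT + Sham than in the other 2 groups. NT + Stroke 1, 4 and 5, where Sp8, Dlx1 and Dlx2 were high, had olfactory bulb scores of 5.56, 5.42 and 5.29, and NT + Stroke 2, 3 and 6 had 4.17, 3.83 and 4.25. HT + Stroke 1, 2 and 6, with the lowest Sp8, had the lowest olfactory bulb scores of all libraries (2.89, 2.76 and 3.35).

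Within groups, where libraries share a treatment, 8 of the 9 genes moved with the olfactory bulb score. Each of these relations is over libraries whose depth and tissue are shared by both measures. Over 24 libraries, with group means removed, Pearson r was 0.95 for Dlx1 and for Sp8 (Spearman rho 0.945 and 0.949), 0.924 for Dlx2 (rho 0.933), 0.894 for Dcx (rho 0.869) and 0.879 for Sp9 (rho 0.9). It was 0.774 for Igfbpl1 (rho 0.827), 0.765 for Dlx5 (rho 0.779) and 0.75 for Cd24a (rho 0.817). The permutation P, from 100000 permutations within groups and adjusted over 36 relations of 9 genes and 4 scores, was 7.2e-05 to 0.00532 for r and 0.00012 to 0.00201 for rho, and raw values of 1e-05 are the smallest that so many permutations can give. In 7 of the 9 genes the sign was the same in all 4 groups. For Dlx5 r was -0.179 in NT + Sham and 0.849 to 0.984 in the other groups. Sox11, whose sign also differed between groups, was the gene that did not pass, with r = 0.0771 (rho 0.185, permutation P = 0.739, adjusted 0.783). Without HT + Stroke 2 and 5, the 2 libraries farthest from their group's mean score, r was 0.742 to 0.938 in the 8 genes and 0.104 for Sox11. Without HT + Stroke 1 and 6 and HT + Sham 6, over 21 libraries, 7 of the 9 passed for r, and Cd24a did not (r = 0.66, permutation P adjusted 0.0611, rho 0.63, adjusted 0.0354).

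The striatum score ran the other way. It was negatively related to 6 of the 9 genes after adjustment, with r from -0.759 for Sp8 and -0.756 for Dcx to -0.543 for Sp9 (rho -0.773, -0.77 and -0.627, permutation P adjusted 7.2e-05, 8e-05 and 0.0136). Dlx5 (r = -0.435), Cd24a (r = -0.33) and Sox11 (r = 0.201) did not pass. Without NT + Stroke 4 and HT + Sham 6, the 2 libraries farthest from their group's mean striatum score, r lay between -0.767 and 0.135. Without the 3 libraries that stood apart, 4 of the 9 passed (Dcx, Dlx1, Dlx2 and Sp8). The cortical excitatory neuron score was negatively related to 8 of the 9 genes (r -0.731 for Cd24a to -0.581 for Dcx, with Sox11 at -0.059), but only 3 passed without HT + Sham 6 and HT + Stroke 1, and 2 (Cd24a and Sp9) without the 3 libraries that stood apart. None of the 9 was related to the ependyma score after adjustment (r -0.332 to 0.243, rho -0.363 to 0.13, permutation P under an unadjusted 0.05 in 0).

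**Figure D3:**
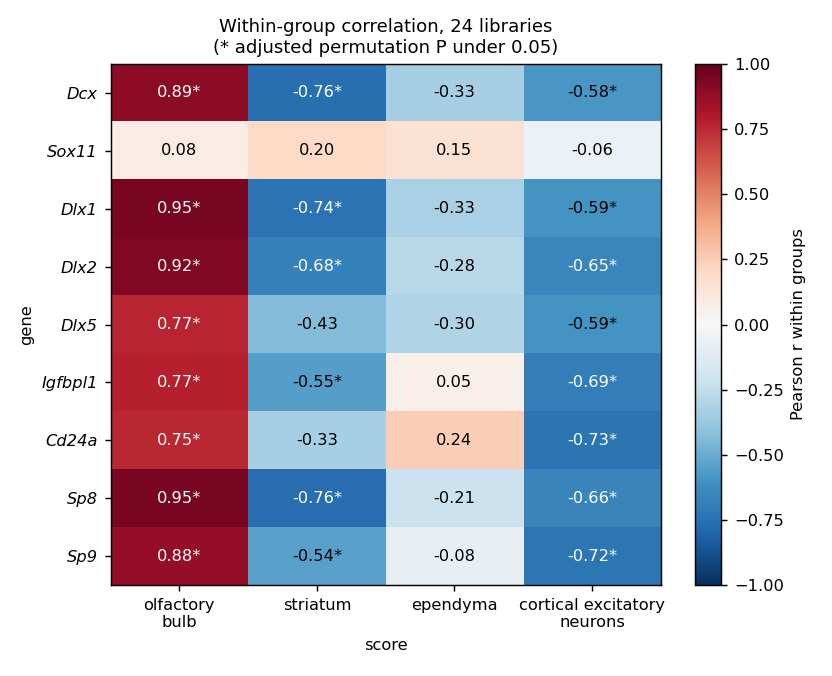
Pearson r of each gene's log2 CPM with 4 section scores over 24 libraries after group means were removed (rows are genes, columns are scores, colour and number give r). An asterisk marks an adjusted permutation P under 0.05. The 8 other genes follow the olfactory bulb score, from 0.75 to 0.95, and Sox11 does not (0.08).

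**Figure D4:**
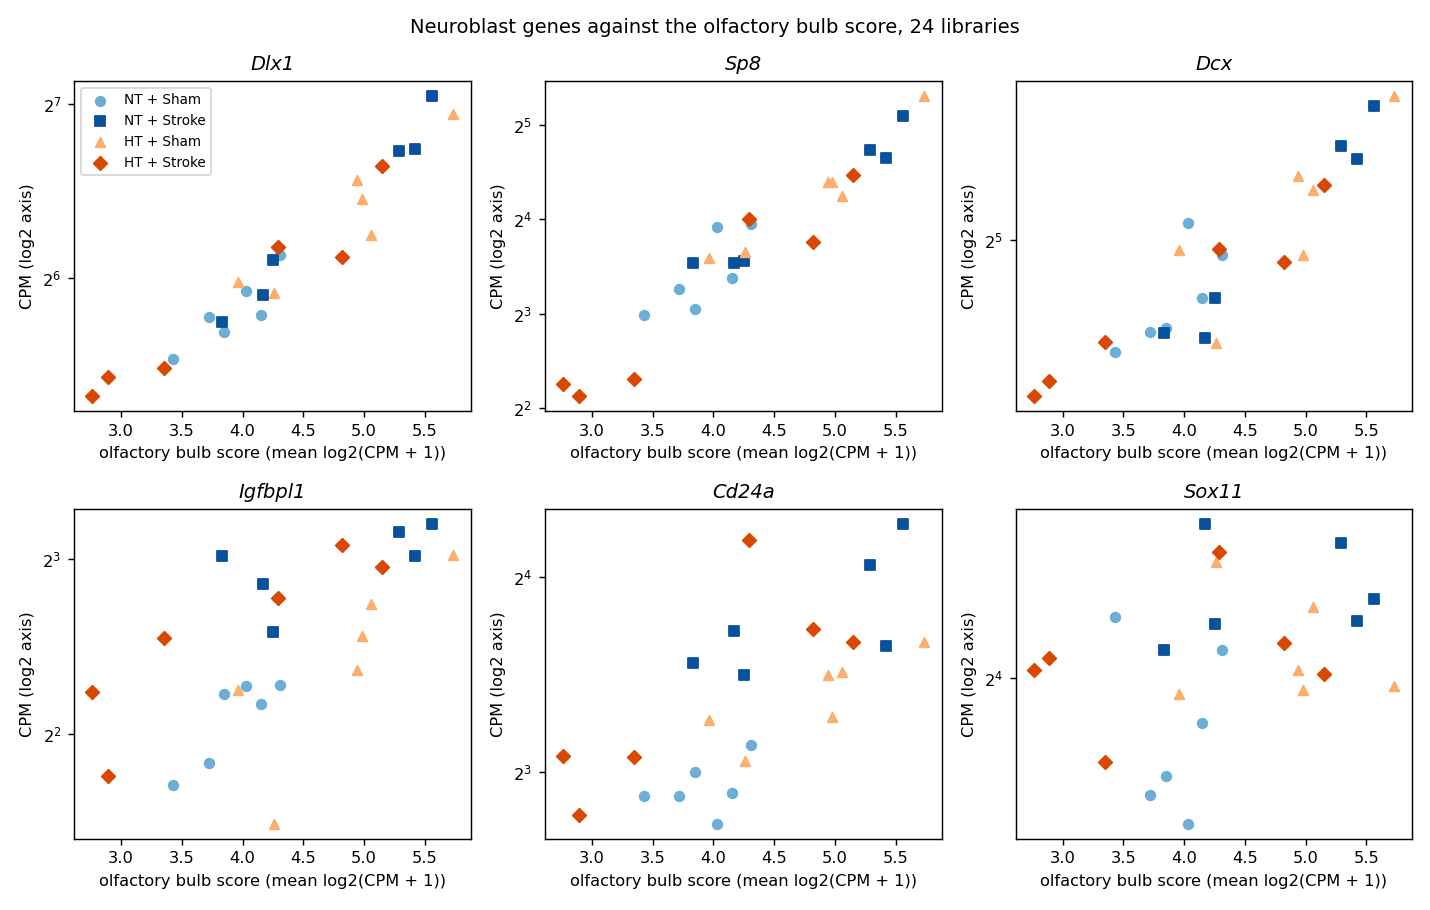
CPM of 6 genes (log2 y axis) against the olfactory bulb score (x axis, mean log2(CPM + 1) of 9 genes), with 1 point per library and colour and shape for the group. Dlx1, Sp8 and Dcx lie along 1 line whatever the group, whereas for Igfbpl1 and Cd24a most NT + Stroke libraries lie above sham libraries of the same score.

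The 9 genes also moved with one another. Over their 36 pairs the within-group r had a median of 0.749, from -0.161 for Sox11 with Igfbpl1 to 0.965 for Dlx1 with Sp8. Sox11 had a median r of 0.0724 with the other 8, where the next lowest, Dlx5, had 0.663. Of 15483 genes ranked by likeness, the 10 with the highest mean r to the 9 genes were Lgr5 (0.778), Pbx3 (0.778), Pax6 (0.775), Ablim3 (0.774), Meis1 (0.772), Cdhr1 (0.772), Otop2 (0.771), Cacng5 (0.771), Sall1 (0.769) and Sp7 (0.768). These means of within-group r over the same 24 libraries are a description, with no test. Cdhr1 is an olfactory bulb gene of the score above.

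The stroke comparison was refitted with the section scores as covariates, so that libraries were compared at a like score. For NT + Stroke vs NT + Sham with the olfactory bulb score in the fit, 4 of the 9 genes rose, where 11.7% of genes were called higher. They were Igfbpl1 (log2 fold change 0.69 ± 0.15, edgeR adjusted P = 0.002786), Cd24a (0.65 ± 0.13, adjusted P = 0.001208), Sp9 (0.55 ± 0.12, adjusted P = 0.002544) and Dlx5 (0.50 ± 0.14, adjusted P = 0.01458). Sox11 kept its size (0.31 ± 0.11) with an adjusted P of 0.05823. Dlx2 came to 0.19 ± 0.11, Dlx1 to 0.01 ± 0.08, Sp8 to -0.05 ± 0.15 and Dcx to -0.22 ± 0.10, with adjusted P from 0.1449 to 0.9352. The olfactory bulb score differed between these groups as well, with 5 of its 9 genes called higher in NT + Stroke (median log2 fold change 1.14), so the covariate and the groups were not independent.

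With the striatum score in the fit, all 9 genes rose (log2 fold changes 0.29 for Sox11 to 1.19 for Sp8), where 15% of genes were called higher. With the ependyma score, 8 rose (all but Sox11), where 8.33% of genes did. Both scores were also higher in NT + Stroke than in NT + Sham (median striatum score 6.87 and 6.03, median ependyma score 2.11 and 1.22). These covariates and the groups were thus not independent either, and the counts cannot tell section position from stroke. With striatum and olfactory bulb scores together, 0 of the 9 passed where 4.61% of genes were called higher, and 2 (Igfbpl1 and Cd24a) had an unadjusted P under 0.05. In that fit Igfbpl1 was 0.69 ± 0.22 (edgeR adjusted P = 0.07858), from 0.90 with no covariate, and Cd24a was 0.39 ± 0.17 (adjusted P = 0.2485), from 0.91, and the other 7 lay between -0.09 and 0.30. This fit called 862 genes in either direction, where the fit with no covariate called 4365.

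**Figure D5:**
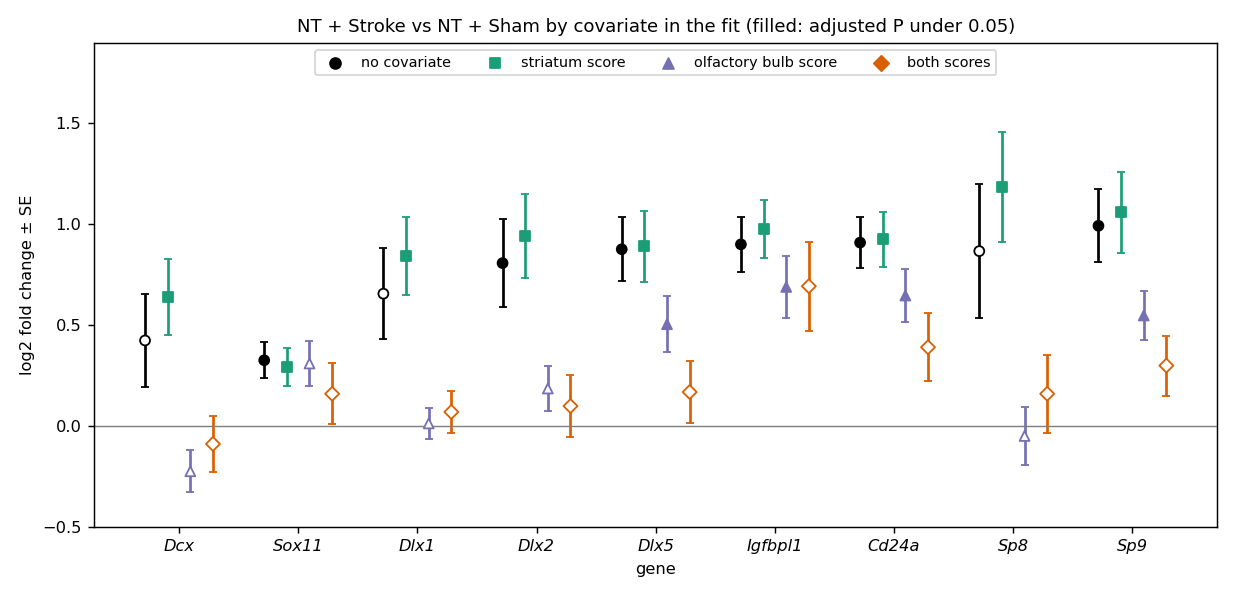
Log2 fold change ± SE of NT + Stroke vs NT + Sham (y axis, n = 6 per group) for each gene (x axis) with no covariate, with the striatum score, with the olfactory bulb score and with both in the edgeR fit. Filled symbols passed an adjusted P of 0.05. With the olfactory bulb score Dlx1, Dcx and Sp8 lie at or below 0.01 while Igfbpl1 and Cd24a stay at 0.69 and 0.65.

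Over both pressures, the same 4 genes (Igfbpl1, Cd24a, Sp9 and Dlx5) rose with the olfactory bulb score in the fit, where 15.4% of genes were called higher. Their log2 fold changes were 0.54 ± 0.10, 0.51 ± 0.09, 0.36 ± 0.08 and 0.35 ± 0.09, and Dcx (-0.01 ± 0.07), Dlx1 (0.08 ± 0.05) and Sp8 (-0.11 ± 0.09) stayed near 0. With the striatum score 7 rose (14% of genes called higher), with both scores 1 rose, Igfbpl1 (0.53 ± 0.15, edgeR adjusted P = 0.02664, 5.44% of genes called higher), and with the ependyma score 0 rose (0.00568% of genes called higher). The fit with the ependyma score called 1 gene in all. In stroke libraries over both pressures, 7 of 8 ependyma and 10 of 11 striatum genes tested were called higher. Whether stroke or section position raised them was not tested. These scores and stroke were thus not independent, and the 0 cannot tell section position from stroke. For HT + Stroke vs NT + Sham with the olfactory bulb score, Igfbpl1, Cd24a, Sp9 and Dlx5 rose as well, where 9.17% of genes were called higher. With that score and without the 3 libraries that stood apart, the same 4 genes rose for HT + Stroke vs NT + Sham (11.1% of genes called higher), and these 4 and Sox11 over both pressures (16.6% of genes called higher).

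For HT + Stroke vs HT + Sham with the olfactory bulb score, 0 of the 9 genes passed, where 2.9% of genes were called higher. Igfbpl1 was 0.61 ± 0.19 (edgeR adjusted P = 0.08073) and Cd24a 0.46 ± 0.16 (adjusted P = 0.1219), while Sp9 was 0.22 ± 0.14 (adjusted P = 0.4196) and Dlx5 0.19 ± 0.15 (adjusted P = 0.5486). The other 5 lay between -0.13 and 0.04. Without the 3 libraries that stood apart as well, 0 passed, where 6.31% of genes were called higher, and the log2 fold changes were -0.06 to 0.62.

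The interaction and the angiotensin II differences were also refitted with the olfactory bulb score. The 9 interactions, -1.77 to -0.33 without it, were -0.33 to 0.16 with it, and 0 had an unadjusted P under 0.05, as 2.15% of genes did in either direction. Without the 3 libraries that stood apart as well, they were -0.34 to 0.15 with 0 under an unadjusted 0.05, against 2.12% of genes. For HT + Sham vs NT + Sham the log2 fold changes went from 0.18 to 0.92 down to -0.23 to 0.21, and for HT + Stroke vs NT + Stroke from -0.86 to -0.15 to -0.20 to 0.08, again with 0 of 9 under an unadjusted 0.05 in each, against 1.6% and 3.12% of genes. With the striatum score the interactions were -1.30 to -0.34 and all 9 had an unadjusted P under 0.05, where 4.09% of genes had a negative interaction at that P. Th, Calb2 and Eomes, of the olfactory bulb list, are also made by newborn bulb neurons or their progenitors. With those 3 left out of the score, an alternative chosen after seeing the data, the same 4 genes were called for NT + Stroke vs NT + Sham.

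Genes at other steps of the same lineage were counted from lists, against 14.4% of all genes called higher in NT + Stroke vs NT + Sham and 13.8% over both pressures. In NT + Stroke vs NT + Sham, 5 of 10 genes of neural stem and transit-amplifying cells rose and 0 fell. Over both pressures 5 of 10 also rose, among them Thbs4, made by reactive stem cell-derived astrocytes (log2 fold change 1.61 ± 0.18, edgeR adjusted P = 9.922e-06), Nes, the intermediate filament nestin (0.36 ± 0.09, adjusted P = 0.002346), and Egfr, the epidermal growth factor receptor (0.40 ± 0.10, adjusted P = 0.002544). The list's score, 3.12 to 3.3 over NT + Sham libraries, was 3.44 to 3.63 over NT + Stroke libraries, without overlap. Of 8 genes of dividing cells, 1 rose over both pressures, Mki67 (0.93 ± 0.21, edgeR adjusted P = 0.001433). Several of these genes are made by reactive glia too, and all 8 reactive astrocyte and all 8 microglia and macrophage genes rose in NT + Stroke vs NT + Sham, with no overlap of libraries. Their part in the result was not tested.

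Of 10 further neuroblast transcription factors, 6 rose in NT + Stroke vs NT + Sham and 2 over both pressures, Zfhx3 (0.61 ± 0.11, edgeR adjusted P = 0.0001368) and Dlx6 (0.42 ± 0.08, adjusted P = 0.0004681). Of 10 genes of the neuroblast cytoskeleton and adhesion, 1 rose and 1 fell over both pressures. St8sia2, which adds polysialic acid to neural cell adhesion molecule, rose (0.72 ± 0.13, edgeR adjusted P = 0.0001856), and Stmn1, the microtubule-destabilising stathmin, fell by 0.33 (log2 fold change -0.33 ± 0.08, adjusted P = 0.002078). Of 8 migration receptors 1 rose, the chemokine receptor Cxcr4, which microglia and leukocytes also make (1.50 ± 0.27, edgeR adjusted P = 0.0001903). In the same list 3 fell, among them the ephrin receptor Epha4 (-0.30 ± 0.06, edgeR adjusted P = 0.0005998). Of all 17608 genes tested over both pressures, 2002 were called lower. Rises of 2 of 10, 1 of 10 or 1 of 8 genes over both pressures, as in these lists and for dividing cells, are near the 13.8% of all genes called higher. Of 8 ependyma genes tested 7 rose over both pressures. Foxj1, the regulator of motile cilia, had the smallest P (1.18 ± 0.14, edgeR adjusted P = 1.106e-05) and no overlap of sham and stroke libraries, while 3 of the others had larger log2 fold changes, among them the cilium gene Ak7 (2.01). The ependyma score was 0.99 to 1.68 in NT + Sham and 1.4 to 2.52 in NT + Stroke. Cd24a is also made by ependymal cells, and its within-group r with that score was 0.243 (permutation P = 0.34, adjusted 0.422), made up of 0.808 in HT + Stroke, 0.0921 in NT + Sham, -0.247 in NT + Stroke and -0.474 in HT + Sham. With the ependyma score in the fit, its log2 fold change for HT + Stroke vs NT + Sham went from 0.61 to -0.02. That fit called 0 genes of any kind. The ependyma scores of these groups did not overlap (0.99 to 1.68 in NT + Sham, 1.72 to 2.58 in HT + Stroke). The fit therefore cannot tell the score from the treatment. For NT + Stroke vs NT + Sham, Cd24a was still called with the ependyma score. Only NT + Stroke 4 and 5 (1.4 and 1.61) lay within the NT + Sham range of that score, so this fit can hardly tell the score from stroke either.

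In HT + Stroke vs HT + Sham, where 0.544% of genes were called higher, 0 of 10 further neuroblast transcription factors were called (median log2 fold change -0.31), 0 of 10 genes of the cytoskeleton and adhesion, 0 of 7 migration receptors and 0 of 8 genes of dividing cells. In that comparison 1 of 9 stem and transit-amplifying cell genes and 5 of 8 ependyma genes rose. Of 8 reactive astrocyte genes 0 were called there too (median log2 fold change 1.82), and of 8 microglia and macrophage genes 0 (2.42). A lack of calls in this comparison therefore does not show a lack of change.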

How the data were processed

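RNA sequencing was analysed for 24 libraries in 4 groups of 6, and groups were taken from the sample labels. The authors deposited counts of reads per gene with FPKM values beside them, in 4 tables of 2 groups each. Per the labels' processing notes, featureCounts 1.5.0-p3 and DESeq2 1.20.0 were used by the submitters, and the aligner is not given in the sources used here. The tables were joined on gene ID, and 48 comparisons of libraries shared between tables found 0 that differed. Columns of normalized counts (48), group means (8) and the authors' own tests (12, with log2 fold changes and p-values) were not used. Of the 33981 genes, 3766 were missing from a table that a comparison needed. Counts were tested with edgeR 4.0.16 (R 4.3.3) by the quasi-likelihood F test with robust dispersion, TMM scaling and filterByExpr (minimum count 10, total 15). P-values were adjusted by Benjamini-Hochberg across every gene in the fit and called under 0.05. CPM were TMM-scaled. Scores were means of log2(CPM + 1) over those list genes that averaged 0.5 CPM or more. Within-group correlations used deviations of log2 CPM from group means and 100000 two-sided permutations within groups. DESeq2 1.42.0 and limma 3.58.1 on log2(FPKM + 1) were alternatives. The edgeR, DESeq2 and limma fits and the correlation test were tried on simulated data, while the fits with section scores were not. The 9 genes and all lists were chosen with earlier results of these data known. All 9 genes were named in every comparison, with at most 3 genes per list by smallest P in stroke over both pressures, and the 10 genes most like the 9. The fits and correlations without HT + Stroke 1 and 6 and HT + Sham 6, also with the olfactory bulb score, and those with the reduced olfactory bulb score, were chosen after seeing the data. The number of libraries limits the precision of each value, and totals of 15922919 to 24865998 counts limit that of the lowest genes.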

Additional observations from a re-analysis of the deposited data

Results flagged for a closer look

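In HT + Sham, library 6 stood above the other 5 libraries for Dlx2 (37.5 CPM) and for Sp8 (39.5 CPM), past Dixon's critical value for 6 samples. Such a value is met by chance in about 1 in 20 groups. The search covered 9 genes in 4 groups, so a few such values can be met by chance. Dlx2 and Sp8 also moved together within groups (r = 0.939), so these are not separate observations. The same library had the highest olfactory bulb score of all libraries (5.73), the lowest striatum score (4.17) and a reactive astrocyte score of 4.4. The part of these in the result was not tested.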

How the results depend on the processing

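With the olfactory bulb score as a covariate, 4 of the 9 genes were called for HT + Stroke vs NT + Sham and 4 for stroke over both pressures, also with Th, Calb2 and Eomes left out of that score (4 and 4). With the striatum score the counts were 0 and 7, with the ependyma score 0 and 0, and with striatum and olfactory bulb scores together 0 and 1, and 0 for NT + Stroke vs NT + Sham. Without HT + Stroke 1 and 6 and HT + Sham 6 they were 4 and 5, and 4 and 5 with the olfactory bulb score as well. Without these 3 libraries 13 of the 36 within-group correlations passed, against 22 with all libraries. DESeq2 called 2 for HT + Stroke vs NT + Sham and 2 for the interaction, and a minimum of 10 counts per library gave 2 for the former. At an unadjusted P under 0.05 the counts were 9 for the interaction, 7 for HT + Sham vs NT + Sham, 4 for HT + Stroke vs NT + Sham and 1 for HT + Stroke vs NT + Stroke. The cause was not tested.

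Leaving out 1 library at a time (96 fits) gave 6 to 7 called genes for NT + Stroke vs NT + Sham, 2 to 3 for stroke over both pressures, and 0 to 0 for the interaction, for HT + Stroke vs HT + Sham and for both comparisons of HT with NT mice. It was not run for HT + Stroke vs NT + Sham. Signs turned for Sox11 (-0.0443 to 0.0405) and Cd24a (-0.0491 to 0.2371) in HT + Stroke vs HT + Sham, and for Dcx (-0.0818 to 0.0953) and Sp8 (-0.1569 to 0.1618) over both pressures. Library numbers did not pair the libraries. In NT + Stroke vs NT + Sham the correlation of same-numbered libraries was -0.102 to 0.297, over 0.1 in 3 of 6 pairs, and 1 library correlated best with its own number. With the library number as a replicate block, 8 genes were called there and 0 for HT + Stroke vs NT + Sham, where Sp8 was -0.20, and Dcx was -0.016 over both pressures.

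Of the single-gene values under other alternatives, 1288 kept their direction and side of the threshold, 45 passed it, 80 no longer passed and 73 turned, in genes called under neither setting. With the olfactory bulb score, log2 fold changes that turned were Dcx -0.22 and Sp8 -0.050 in NT + Stroke vs NT + Sham. In HT + Stroke vs HT + Sham they were Dcx 0.0091, Dlx1 0.040, Dlx2 0.0077, Dlx5 0.19 and Sp9 0.22, and in HT + Sham vs NT + Sham Dcx -0.097, Igfbpl1 -0.23, Sp8 -0.087 and Sp9 -0.009. Dcx was 0.078 in HT + Stroke vs NT + Stroke, -0.014 over both pressures and 0.16 in the interaction, and Sp8 -0.20 in HT + Stroke vs NT + Sham. With both scores, Dcx was -0.089 in NT + Stroke vs NT + Sham. In HT + Stroke vs HT + Sham, Dcx was 0.14, Sox11 -0.012, Dlx1 0.11, Dlx2 0.175, Dlx5 0.45 and Sp9 0.32. In HT + Sham vs NT + Sham, Dlx5 was -0.064, Igfbpl1 -0.20 and Sp9 -0.13. Dcx was 0.073 and Cd24a 0.057 in HT + Stroke vs NT + Stroke, Sp8 0.0046 over both pressures and Dcx 0.061 in the interaction. With the striatum score, HT + Stroke vs HT + Sham gave Dcx 0.30, Dlx1 0.34, Dlx2 0.36, Dlx5 0.51, Sp8 0.42 and Sp9 0.52, and Sp8 was 0.78 over both pressures. With the ependyma score, Sox11 was -0.23, Dlx5 0.16, Igfbpl1 -0.098 and Cd24a -0.63 in HT + Stroke vs HT + Sham, Cd24a -0.019 and Sp8 -0.011 in HT + Stroke vs NT + Sham, and Sp8 0.58 over both pressures. Without the 3 libraries, Dlx5 was 0.075 and Sp9 0.054 in HT + Stroke vs HT + Sham, and Sp8 0.39 over both pressures. With the olfactory bulb score and without the 3 libraries, HT + Stroke vs HT + Sham gave Dcx 0.016, Dlx1 0.053, Dlx2 0.0305, Dlx5 0.2033 and Sp9 0.217, HT + Sham vs NT + Sham gave Dcx -0.059, Igfbpl1 -0.2176 and Sp8 -0.031, and HT + Stroke vs NT + Stroke gave Dcx 0.054 and Cd24a 0.046. Dcx was then -0.021 over both pressures and 0.149 in the interaction, and Sp8 -0.0725 in HT + Stroke vs NT + Sham. Sox11 in HT + Stroke vs HT + Sham was -0.0014 with DESeq2, -0.003 over genes with at least 1 count and -0.0051 with all 4 groups in the fit. Over genes with at least 1 count Sp8 was -0.0006 in HT + Stroke vs NT + Sham and Dcx -0.0089 over both pressures. Sp8 in HT + Stroke vs NT + Sham was -0.075 with limma on log2(FPKM + 1) and -0.18 on log2(FPKM + 0.1), and 0.022 over both pressures with no scaling beyond library size. The r with the ependyma score turned to -0.06 (Sox11) and -0.0297 (Cd24a) without the 2 farthest libraries, to -0.025 (Igfbpl1) with a score over log2(CPM + 0.1) and to -0.0777 (Igfbpl1) without the 3 libraries.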
